A study of Mus musculus with 4 samples.

Results

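Genes of blood development were followed through the accessible chromatin of the mouse limb bud: Klf1, Tal1, Gfi1b, Spi1, Epor, Nfe2 and Runx1. These 7 were chosen from the 21887 protein-coding genes of the mouse gene table by name and not by a measured value. Earlier results of these data were known when they and the other gene lists were chosen. For each gene, every peak was taken that overlapped the gene body or the 50 kb on either side of it. These windows held 111 peaks of the E10.5 list and 63 peaks of the E11.5 list, where E stands for embryonic day.

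The study profiled accessible chromatin by ATAC-seq, in which the Tn5 transposase inserts sequencing adaptors where DNA is open. Both groups were Wild Type mouse embryos, and in each the cells came from Forelimb and Hindlimb together, dissociated with trypsin and fixed in 1% PFA. The groups were 2 stages, E10.5 and E11.5, with 2 replicates each. The titles give E10.5, whereas the treatment protocol writes E10 for that stage. Whole limbs were used, so the cells of vessels and of the blood inside them were not removed by any step the labels name. The data are 1 peak list per stage, which joins both replicates. There is therefore no replicate spread, no depth per sample and no test of a stage difference, and what follows describes the 2 lists.

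Blood of the midgestation embryo is made in the yolk sac and in the large arteries, and reaches the limb bud through its vessels. Tal1, Runx1 and Gfi1b act in the step from blood-forming endothelium to progenitors, and Tal1 and Gfi1b act again in red cells. Klf1, Nfe2 and Epor serve the red cell lineage, while Spi1 drives macrophages, granulocytes and B cells. For Tal1, Gfi1b, Spi1 and Runx1, enhancers are known at set distances from a start site, several of which are described as active in blood or endothelial cells.

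There were 99427 peaks in the list of the earlier stage and 37548 in that of the later one. Ranks below run from 1, the highest signal value of a list, and signal values are the authors' own, which grow with peak width. Ranks and signal values of the 2 lists are set side by side and do not measure a change, because the lists differ in length. For comparison, start sites were read for 16 genes of the limb bud, such as Prrx1, Hand2 and Hoxd13. At E10.5 all 16 had a peak within 1 kb of the start site, and 14 did at E11.5, the exceptions being Tbx5 and Pitx1. Of 10 genes of macrophages and leukocytes generally, only Cd68 had such a peak at E10.5 and none had one at E11.5. Of all protein-coding genes, 66.3% had one at E10.5 and 59.9% at E11.5.

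**Figure D1:**
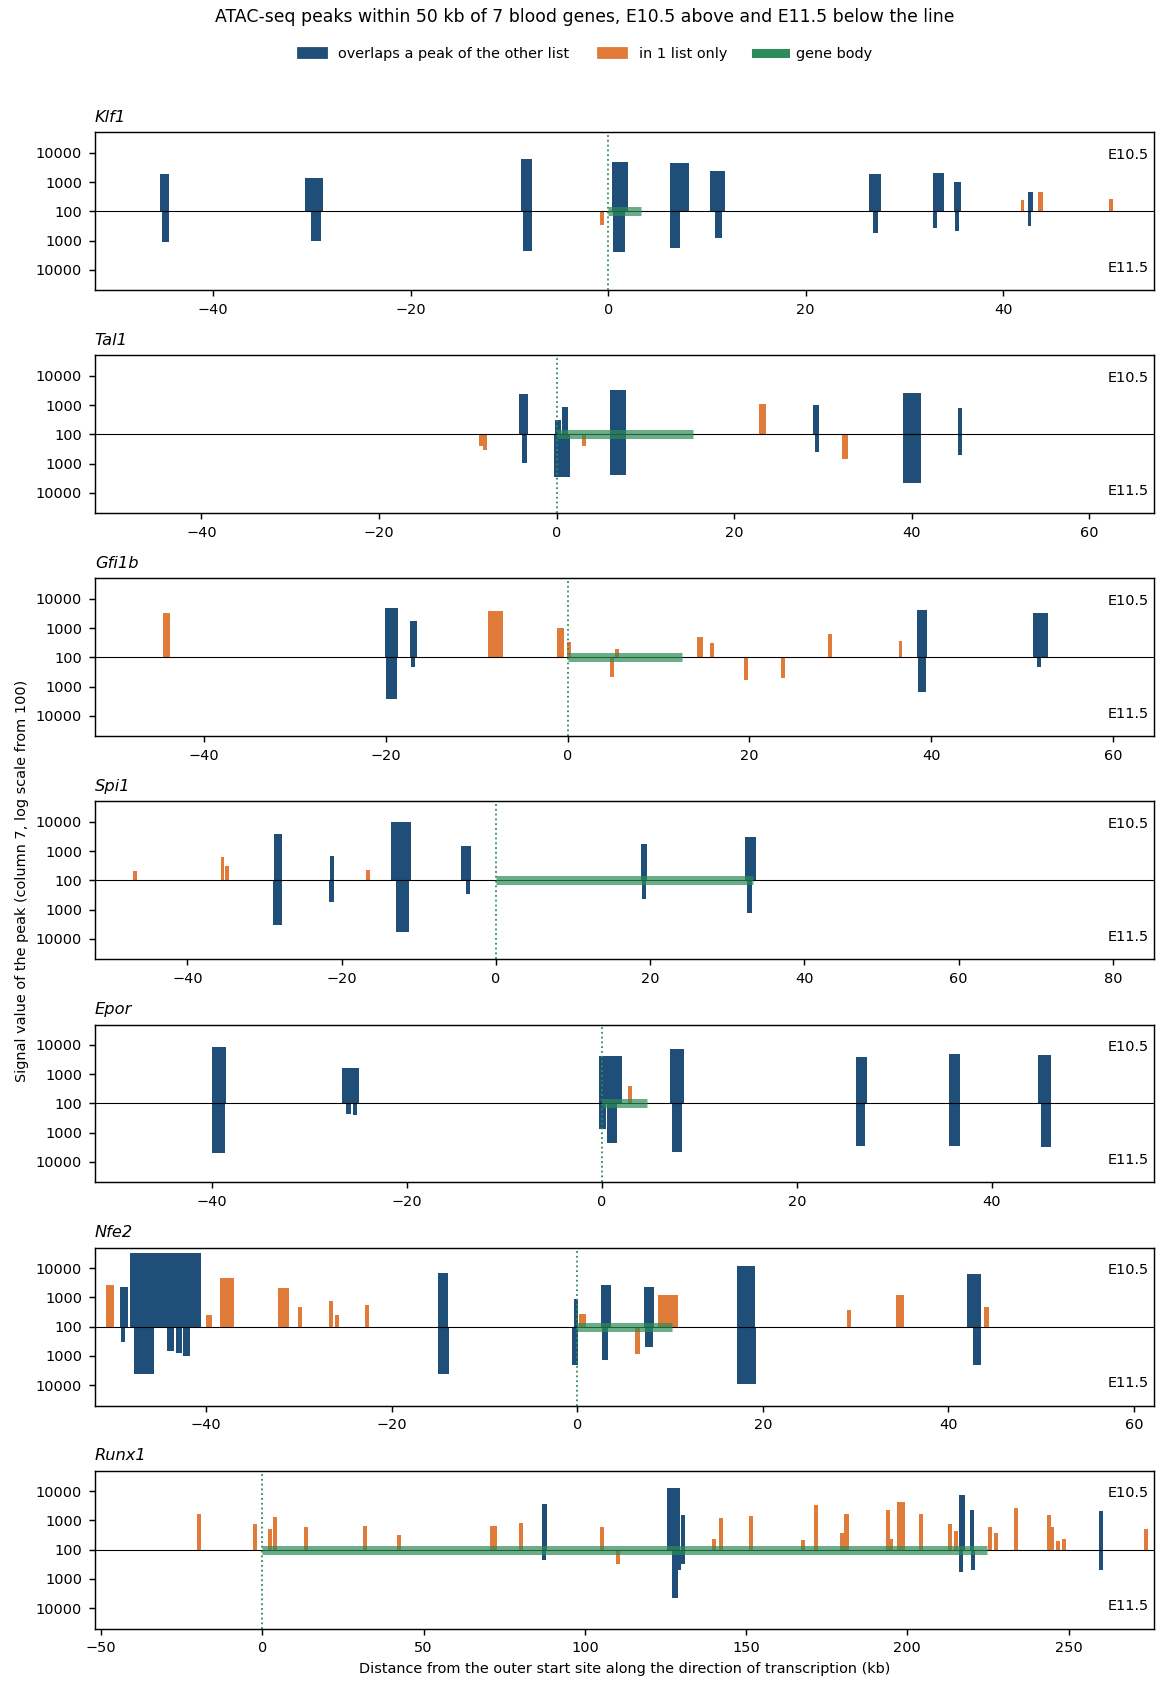
Each panel shows the peaks in the window of 1 gene against the distance from its outer start site (kb, in the direction of transcription), with E10.5 peaks above and E11.5 peaks below the line. Bar height is the signal value on a log scale that starts at 100, bar width is peak width with a minimum so that narrow peaks stay visible, and the green bar is the gene body. The Runx1 panel holds 38 E10.5 peaks and 8 E11.5 peaks, while the Tal1 panel holds 8 and 10.

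Peaks at the start sites were found for most of the 7 genes. At E10.5, 5 of 7 genes had a peak within 1 kb of the outer start site (Klf1, Tal1, Gfi1b, Epor and Nfe2), where 66.3% of all protein-coding genes did. At E11.5 the number was 4 of 7, without Gfi1b, where 59.9% of all protein-coding genes did. These counts lie near those of genes in general. Spi1 had no such peak in either list, and Runx1 had one only at its inner promoter. At E10.5 the start-site peaks of Tal1, Gfi1b and Nfe2 ranked below place 37548, so an E10.5 list as short as the E11.5 list would hold start-site peaks of Klf1 and Epor alone, 2 of 7 genes. In such bulk data, a larger share of blood cells in the limb and more open chromatin per blood cell cannot be told apart.

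Over all 7 windows, 48 of 111 E10.5 peaks overlapped an E11.5 peak, which is 43.2% (95% Wilson interval 34.4 to 52.5%), where 32.3% of all E10.5 peaks did. Of the E11.5 peaks, 53 of 63 overlapped, which is 84.1% (73.2 to 91.1%), where 91.8% of all E11.5 peaks did. The intervals cover counting error only and treat neighbouring peaks as independent. Without Runx1, 57.5% of 73 E10.5 peaks and 83.6% of 55 E11.5 peaks overlapped. Overlap also went with signal. The median E10.5 signal was 1237 in the windows and 838 over all peaks, and overlapping E10.5 peaks of the windows had a median of 2627, against 584 for the others. In an E10.5 list reduced to the number of E11.5 peaks the windows held 54 E10.5 peaks, and the shares became 74.1% and 73.0%. The shares of all peaks in that setting are not given, so 32.3% and 91.8% are no background for them.

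**Figure D2:**
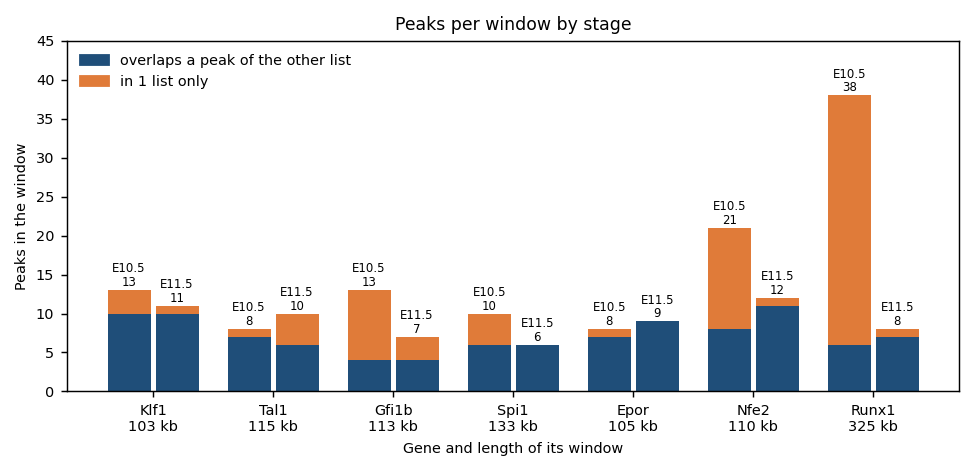
Bars give the number of peaks per window at each stage, split into peaks that overlap a peak of the other list by at least 1 bp and peaks in 1 list only; gene names carry the window length in kb. Runx1 has 32 E10.5 peaks without overlap, and Tal1 has 4 of the 10 E11.5 peaks without overlap. Over the whole lists, 32.3% of E10.5 peaks and 91.8% of E11.5 peaks overlap.

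Many window peaks belonged to neighbours. At E10.5, 18 peaks lay within 1 kb of a neighbour's start site and 23 in a neighbour's body. At the start sites of the 7 genes there were 9, and 34 were elsewhere in their bodies, 26 of them in Runx1. At E11.5, 18 peaks lay at a neighbour's start site, 7 in a neighbour's body, 8 at start sites of the 7 genes and 13 elsewhere in their bodies.

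Among the progenitor factors, Tal1 encodes a basic helix-loop-helix protein that works in a complex with GATA1, LMO2 and LDB1. Its gene body spans 115056426 to 115071755 on chromosome 4, plus strand (build mm10). The bases before its outer start, chr4:115056176-115056425 on the plus strand of RefSeq GRCm38.p6, are shown because the E11.5 peak covered all 250 of them and an E10.5 peak 151. Capitals mark a GATA motif.

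Tal1 promoter: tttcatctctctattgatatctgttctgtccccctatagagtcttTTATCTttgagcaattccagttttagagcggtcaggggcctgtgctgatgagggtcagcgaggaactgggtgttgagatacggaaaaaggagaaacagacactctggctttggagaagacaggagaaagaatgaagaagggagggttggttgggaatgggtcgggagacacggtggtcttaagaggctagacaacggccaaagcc

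The capitals read AGATAA on the opposite strand, and the match starts 205 bases before the start. GATA motifs were searched on both strands with the letters AGATAA or with AGATAG, and further with TGATAA or with TGATAG, and 26.5% of 32851 RefSeq promoters of this length hold a match. At E10.5 a pair of small peaks lay at the Tal1 starts. The peak over the outer start had a signal of 305 (rank 83776), and the next, which ended 82 bp short of an inner RefSeq start 1385 bp downstream, had 845 (rank 49449). At E11.5 a single peak of 1748 bp covered both starts, with a signal of 2779 and rank 7729.

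The Tal1 window was the richest in peaks of the E11.5 list alone. It held 10 E11.5 peaks against 8 E10.5 peaks, or 125 E11.5 peaks per 100 E10.5 peaks. Over the 14466 protein-coding genes with at least 5 E10.5 peaks in their windows the median was 50 (quartiles 31.6 to 66.7), and 0.684% of them had a ratio as high as that of Tal1. Windows of neighbouring genes share peaks, so these genes are not independent. Where 91.8% of all E11.5 peaks overlapped an E10.5 peak, 4 of the 10 here did not. A pair of them began at −8610 and −8203 bp in the noncoding transcript Gm52674, another lay at +3.09 kb inside Tal1, and the last at +32.3 kb at the start site of the neighbour Pdzk1ip1. The Pdzk1ip1 peak had the highest signal of the 4, at 677 (rank 19438), and the others ranged from 243 to 342. Of the 8 E10.5 peaks, only that at +23.3 kb (signal 1108, rank 41470) had no E11.5 overlap.

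The Tal1 enhancers known from blood development were then located. The +40 kb element, an enhancer of red cells, was covered in both lists by a peak with its summit at +39.5 kb. That peak had a signal of 2623 and rank 20918 at E10.5, and 4510 and rank 3600 at E11.5, where it was the highest in the window. The −4 kb element, described in endothelium and early blood, was matched in both lists by a peak with its summit at −3.65 kb. Its signal was 2452 (rank 22232) at E10.5 and 987 (rank 15944) at E11.5. The +19 kb element, an enhancer of blood stem cells and endothelium, had no peak at its nominal position. The nearest lay 3849 bp away at E10.5 and 10224 bp away at E11.5. Thus both lists held the red cell element and neither held a peak at the stem cell element.

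Gfi1b encodes a zinc finger repressor needed for red cells and platelets, and its gene spans 28609450 to 28621982 on chromosome 2, minus strand. Its window held 13 E10.5 peaks and 7 E11.5 peaks. In each list 4 overlapped, where 32.3% of all E10.5 peaks and 91.8% of all E11.5 peaks did. The ratio of 53.8 per 100 was reached by 41.9% of the 14466 genes, near the middle. At E10.5 a peak with a signal of 988 (rank 44758) lay upstream of the start with its summit at −0.718 kb, and another of 348 (rank 79165) began 33 bp inside the gene. At E11.5 the nearest peak was 4740 bp from the start. The 3 E11.5 peaks without overlap were small, with signals of 463 to 592, at +4.84, +19.6 and +23.8 kb. The largest E10.5 peak without overlap in the window lay at −8.02 kb between genes, with a signal of 3791 and rank 14261. In its decile of the E10.5 list by signal, 81.3% of peaks overlapped an E11.5 peak.

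Blood enhancers of Gfi1b are described +13, +16 and +17 kb from the start, downstream of the gene. A small E10.5 peak with its summit at +15.9 kb covered the +16 kb position and ended 930 bp from the +17 kb position. Its signal was 309 and its rank 83370. Another E10.5 peak lay 1210 bp from the +13 kb position, with a signal of 495. The nearest E11.5 peak was 2422 bp or more from each of the 3 positions. Most of the shared peaks of this window belonged to neighbours: the start sites of Tsc1, a subunit of the TSC complex, and of Gtf3c5, a subunit of a polymerase III factor, and a site inside Gtf3c5.

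Runx1, the transcription factor required for blood cells to emerge from endothelium, spans 92601466 to 92826074 on chromosome 16, minus strand. It is also expressed in nonblood tissue, including limb mesenchyme and skeletal precursors. Its distal promoter P1 is the outer start and its proximal promoter P2 lies 128745 bp inside. The 250 bases before each are shown because the lists differed between them: chr16:92826075-92826324 for P1 and chr16:92697330-92697579 for P2, both on the minus strand of RefSeq GRCm38.p6. Capitals mark an ETS motif (AGGAAG, found in 29.5% of promoters).

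Runx1 P1: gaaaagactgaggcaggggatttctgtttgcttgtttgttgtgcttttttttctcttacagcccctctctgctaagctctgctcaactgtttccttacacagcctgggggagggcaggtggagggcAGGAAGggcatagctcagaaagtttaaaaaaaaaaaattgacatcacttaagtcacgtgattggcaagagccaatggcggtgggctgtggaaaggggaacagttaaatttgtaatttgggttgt

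Runx1 P2: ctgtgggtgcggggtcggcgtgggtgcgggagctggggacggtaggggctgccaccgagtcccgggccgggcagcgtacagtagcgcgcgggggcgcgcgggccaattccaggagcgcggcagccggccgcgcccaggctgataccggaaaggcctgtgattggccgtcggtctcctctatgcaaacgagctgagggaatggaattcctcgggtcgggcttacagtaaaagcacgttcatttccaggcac

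The P2 sequence has 67.6% G and C and 27 CpG sites, and the P1 sequence 45.6% and 2, where the medians over all promoters are 52.4% and 6. All 250 bases of P2 lay inside a peak in both lists, and none of P1 did. The P2 peak had a signal of 12967 and rank 777 at E10.5, and 4382 and rank 3814 at E11.5. It was the highest of the window in each list. The nearest peak to P1 was 1996 bp away at E10.5 and 57630 bp away at E11.5.

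The Runx1 window held 38 E10.5 peaks and 8 E11.5 peaks, or 21.1 per 100, and 87.8% of the 14466 genes had a ratio at least as high. Where 32.3% of all E10.5 peaks overlapped an E11.5 peak, 32 of the 38 here did not. The largest of these lay inside the gene at +198.5 kb (signal 4370, rank 11911) and +172.1 kb (3418, rank 16077). A peak at +216.7 kb near the end of the gene had a signal of 7478 and rank 4351 at E10.5, and 574 and rank 21217 at E11.5. One at +87.3 kb had 3700 and rank 14682 at E10.5, and 222 and rank 35593 at E11.5.

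At the Runx1 +23 kb element, the enhancer active in emerging blood stem cells, neither list held a peak, the nearest being 8555 bp away at E10.5 and 64103 bp away at E11.5. Near the +110 kb element the E11.5 list alone held a peak, 213 bp from the nominal position, with its summit at +110.3 kb, a signal of 313 and rank 29661. A pair of further elements, one +3 kb from the outer start and one near the end of the gene, was looked up after the peak positions had been seen. An E10.5 peak without overlap, with its summit at +204.03 kb, covered the latter (signal 1686, rank 30478), and another lay 245 bp from the +3 kb position (1253, rank 38110). At E11.5 the nearest peaks were 12460 bp from the latter and 60630 bp from the former.

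Spi1 encodes PU.1, the ETS factor of macrophages, granulocytes and B cells, and its gene spans 91082374 to 91115759 on chromosome 2, plus strand. No peak of either list lay between −3.19 and +18.8 kb of its outer start, a stretch of 22.0 kb. GENCODE M1 lists coding transcripts of Spi1 that start at the outer start and 13.7 and 14.4 kb inside it, of which the one at 13.7 kb is in the CCDS set of agreed coding sequences. The upstream regulatory element of Spi1 is known by the offsets −14 and −12 kb. Counted from the CCDS transcript, a choice made here, these lie at −0.29 and +1.71 kb of the outer start. The 3 starts and both element positions, so counted, fell in the stretch without a peak. Counted from the outer start instead, the −12 kb position fell in the peak at the Slc39a13 start site in both lists. The −14 kb position then lay 359 bp from that peak at E10.5 and 1020 bp from it at E11.5. The window held 10 E10.5 peaks and 6 E11.5 peaks. All 6 were shared, where 91.8% of all E11.5 peaks were. The ratio of 60 per 100 was reached by 34.8% of the 14466 genes. The highest in both lists belonged to the start site of Slc39a13, a zinc transporter, with a signal of 10361 (rank 1709) and of 5583 (rank 2118). Inside Spi1 both lists held peaks at +19.1 and +32.8 kb, the latter near the end of the gene (3065, rank 17961, and 1261, rank 13976).

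Among the red cell genes, Klf1 encodes the Krüppel-like factor that activates adult β-globin. Its gene body spans 84901982 to 84905291 on chromosome 8, plus strand. The bases before its start, chr8:84901732-84901981 on the plus strand of RefSeq GRCm38.p6, are shown because they lay between peaks and hold 2 motif matches. Capitals mark a RUNX motif (TGTGGT, here on the opposite strand 133 bases before the start) and a GATA motif (TGATAA, opposite, 80 bases before).

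Klf1 promoter: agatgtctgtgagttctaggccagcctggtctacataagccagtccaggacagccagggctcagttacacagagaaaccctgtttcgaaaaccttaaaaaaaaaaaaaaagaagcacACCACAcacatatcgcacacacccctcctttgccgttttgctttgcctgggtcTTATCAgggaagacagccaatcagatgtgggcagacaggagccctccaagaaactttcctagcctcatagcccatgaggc

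RUNX motifs occur in 14.05% of promoters. The matches do not overlap, and no base of the sequence lay in a peak of either list. The Klf1 peak began 354 bp inside the gene at E10.5 and 530 bp inside at E11.5. Its summit lay at +1.26 and +1.24 kb, its signal was 4885 (rank 10063) and 2495 (rank 8586), and it was the highest in the window at E11.5. On the other side of the start, the E11.5 list held a peak of its own from 779 to 574 bp upstream, with a signal of 303 and rank 30112. An erythroid hypersensitive site and enhancer is described in this upstream region, a note made after the peak was seen.

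The Klf1 window held 13 E10.5 peaks and 11 E11.5 peaks, or 84.6 per 100, a ratio reached by 10.02% of the 14466 genes. Where 32.3% of all E10.5 and 91.8% of all E11.5 peaks overlapped, 10 in each list did so here. Most lay at other genes of this dense region. Start-site peaks of Farsa, Syce2, Gcdh and Dnase2a were in both lists, that of Mast1 and Rtbdn was in the E10.5 list alone, and 5 further shared peaks lay inside Mast1. Gcdh, a mitochondrial dehydrogenase gene, had the highest E10.5 signal (6375, rank 6284).

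Epor encodes the receptor of erythropoietin, which carries the survival signal of red cell precursors. Its gene body spans 21958897 to 21963576 on chromosome 9, minus strand. The bases before its start, chr9:21963577-21963826 on the minus strand of RefSeq GRCm38.p6, are shown because both lists placed a peak on them, over 250 bases at E10.5 and 247 at E11.5. Capitals mark a RUNX motif (opposite strand, 166 bases before the start) and a GATA motif (AGATAA, opposite, 54 bases before).

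Epor promoter: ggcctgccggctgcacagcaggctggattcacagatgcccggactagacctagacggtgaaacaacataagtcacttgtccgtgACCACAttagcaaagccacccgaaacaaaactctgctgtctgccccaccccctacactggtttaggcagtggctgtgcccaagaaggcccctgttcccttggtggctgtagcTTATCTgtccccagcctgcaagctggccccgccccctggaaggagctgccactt

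The E10.5 peak at the Epor start was 2402 bp wide, with a signal of 4182 and rank 12660. In the E11.5 list 2 peaks lay within it, one over the start (721, rank 18790) and one with its summit 0.988 kb inside the gene (2256, rank 9397). The summit of the wide E10.5 peak stood at that same inner position. The window held 8 E10.5 peaks and 9 E11.5 peaks, or 112.5 per 100, a ratio reached by 1.84% of the 14466 genes. Part of that ratio came from 2 wide E10.5 peaks, at Epor and at Rgl3, that each overlapped 2 E11.5 peaks. All 9 E11.5 peaks overlapped, where 91.8% of all E11.5 peaks did. The only E10.5 peak without overlap lay 2.81 kb inside Epor (390, rank 75154). The other peaks stood at start sites of neighbours, among them Swsap1, Rab3d and the shared site of Ccdc151 and Prkcsh.

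Nfe2 encodes the p45 subunit of the NF-E2 factor, which binds the globin control region and is needed for platelets. Its gene body spans 103248212 to 103258403 on chromosome 15, minus strand. The peak over its outer start had a signal of 840 and rank 49665 at E10.5, and 2009 and rank 10347 at E11.5. Beside it the E10.5 list held a further small peak 0.641 kb inside the gene (275, rank 87584). An inner coding transcript of Nfe2 starts 2.96 kb inside in GENCODE M1, where both lists held a peak (2630, rank 20862, and 1388, rank 13186). An E11.5 peak at +6.60 kb (signal 851) was the only one of the window without an E10.5 overlap. It lay close to further inner starts of GENCODE M1, the nearest of which is at +6.72 kb.

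The Nfe2 window held 21 E10.5 peaks and 12 E11.5 peaks, or 57.1 per 100, a ratio reached by 38.4% of the 14466 genes. The densest stretch lay upstream at and beyond the end of Copz1, a subunit of the vesicle coat. There an E10.5 peak of 7630 bp held rank 23 of the whole list with a signal of 32889, and 4 E11.5 peaks lay within it, the highest with a signal of 4289 and rank 3981. At E10.5, 8 of the 21 peaks overlapped an E11.5 peak, where 32.3% of all E10.5 peaks did. Of the 13 E10.5 peaks without overlap, that at −37.6 kb inside Copz1 had the highest signal (4471, rank 11536). The highest E11.5 peak (9156, rank 335) stood at the shared start of Cbx5, a heterochromatin protein gene, and Hnrnpa1.

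Where a single E10.5 peak overlapped a single E11.5 peak, the standing of the pair could be read in each list over the same set of 29429 pairs. Percentiles of signal were taken within each list over these pairs, and a difference of 25 points was used, a value chosen after the data had been seen. Of 42 pairs in the windows, 5 stood at least 25 points higher at E11.5, which is 11.9%, where 10.1% of all pairs did. Another 4 stood at least 25 points lower at E11.5, which is 9.52%, where 11.9% of all pairs did. The windows as a whole were thus near the background in both directions, and single pairs are given as descriptions.

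The pair with the greatest positive difference was that over the Nfe2 start, which stood at percentile 11.8 in the E10.5 list and 68.7 in the E11.5 list. Of all pairs, 0.415% had a difference at least as large. The Tal1 pair at +39.5 kb, on the red cell enhancer, stood at 44.7 and 89.0, a difference reached by 1.70% of pairs. Ranked by signal per bp, which takes out peak width, these pairs differed by 62.6 and 63.2 points. The other pairs past 25 points were Tal1 at +45.4 kb, Spi1 at −21.4 kb and the Syce2 start site near Klf1, with 25.5, 30.2 and 30.8 points. Per bp they fell under 25 points, to 12.01, 12.65 and 19.92. At the other end, the Runx1 pair at +87.3 kb stood at 59.5 and 4.67, and that at +216.7 kb at 88.8 and 39.8, and both also stood over 25 points lower per bp. The site inside Gtf3c5 differed by −52.4 points, but by −21.6 per bp. The site at −17.1 kb of Gfi1b differed by −27.1 points and turned direction per bp, to +4.995. The pair inside Klf1 stood at 72.1 and 73.9. The Tal1 start could not be placed in this way, because its E11.5 peak overlapped 2 E10.5 peaks.

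**Figure D3:**
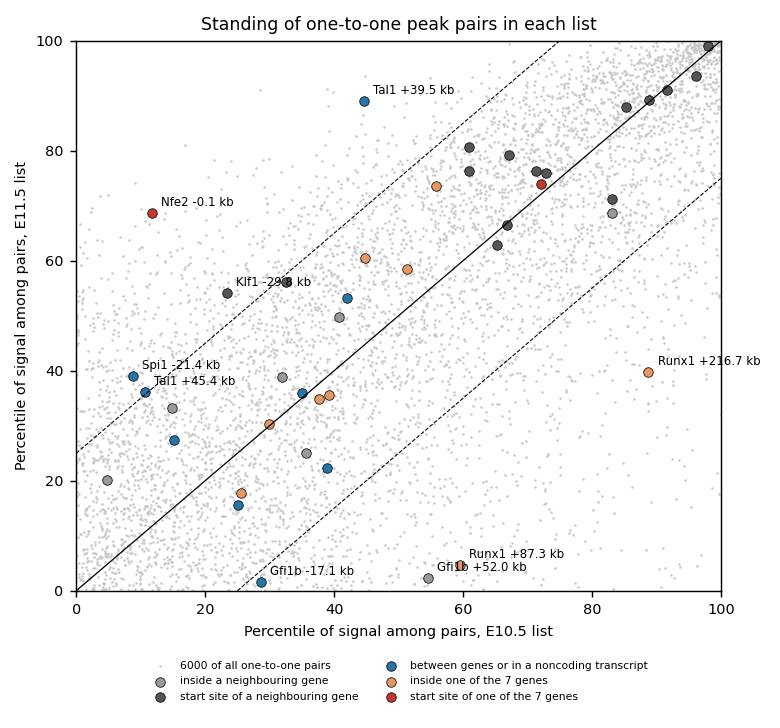
Each point is a pair of overlapping peaks, placed by the percentile of its signal among pairs in the E10.5 list (x) and the E11.5 list (y); grey points are 6000 of all pairs and coloured points the 42 pairs in the windows of the 7 genes. Dashed lines mark a difference of 25 points, and the pairs over the Nfe2 start and at Tal1 +39.5 kb lie above the upper line.

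In all, 8 enhancer positions with a known offset from the outer start could be checked. Both Spi1 positions, though planned, were left aside, because their result depends on the start from which they are counted. A peak lay within 1 kb of 4 of the 8 at E10.5 and of 3 at E11.5. The E11.5 positions were Tal1 −4, Tal1 +40 and Runx1 +110 kb. Those at E10.5 were Tal1 −4, Tal1 +40 and the Gfi1b +16 and +17 kb pair, which share a single peak. That Gfi1b peak had rank 83370, so an E10.5 list as short as the E11.5 list would keep only the Tal1 elements. How often a position taken at random in these windows lies as near a peak was not computed, so the counts have no background. Of the 8, only the 2 Tal1 elements had a peak in both lists. Offsets are rounded to whole kb in the literature, so a nominal position is approximate.

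The start sites of other blood genes were set beside those of the 7. None of the 7 genes had a start-site peak in the E11.5 list alone, and neither did any of 15 other blood transcription factors, where 0.385% of all protein-coding genes did (83 of 21536). At so low a share, an absence from gene lists this small says little. With an E10.5 list as short as the E11.5 list, Tal1 and Nfe2 would have one at E11.5 alone. Their E10.5 start-site peaks ranked 49449 and 49665. The share of all genes in that setting is not given. Of those 15 factors, 13 had a start-site peak at E10.5 and 10 at E11.5, where 66.3% and 59.9% of all protein-coding genes did. Gata1 and Lmo2 had none, and Gata2, Ldb1 and Cbfa2t3 had one at E10.5 alone, where 1444 of 21536 protein-coding genes did. The peaks of these factors ranked 26889, 1206 and 53694, so an E10.5 list as short as the E11.5 list would lack that of Cbfa2t3. Many of these factors also act outside blood.

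The genes that these factors switch on in red cells gave other counts. Their lists were chosen with earlier results of these data known, so the counts are descriptions only. Of 10 erythroid structural and haem genes, a start-site peak was found for 4 in the E10.5 list and for 9 in the E11.5 list. The shares of all protein-coding genes were 66.3% and 59.9%. Where 0.385% of all protein-coding genes had one at E11.5 alone, 5 of the 10 did. These were Slc4a1 and Epb42, which build the red cell membrane, and Hemgn, Rhag and Ermap. Their E11.5 signals ran from 202 for Rhag to 1524 for Epb42. Alas2, the red cell enzyme of haem synthesis, had none in either list. All 7 globin genes had a start-site peak at E11.5 and 3 did at E10.5, namely Hba-x, Hba-a1 and Hba-a2. The E10.5 peaks of these 3 ranked from 67317 to 97202, so an E10.5 list as short as the E11.5 list would hold none of them. The embryonic gene Hbb-y had the highest signal among the globin genes at E11.5, at 972 (rank 16082). The lowest were Hbb-bt at 239 (rank 34247) and Hbb-bh1 at 270 (rank 32101), near the minimum of the list, just above 200. Hba-a1 and Hba-a2 are near-identical copies, as are Hbb-bs and Hbb-bt, so their reads may have been divided between copies.

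Other cell types of the vessel were read in the same way. Of 5 megakaryocyte genes, Itga2b and Gp9 had a start-site peak at E11.5 alone and the other genes had none. Over all protein-coding genes, 0.385% had one at E11.5 alone. Of 15 endothelial genes, 10 had a start-site peak at E10.5 and 6 at E11.5, where 66.3% and 59.9% of all protein-coding genes did. None had one at E11.5 alone. Kdr, Flt1, Sox17, Sox18, Sox7 and Cldn5 had one in both lists, and Tek, Pecam1, Emcn, Egfl7 and Etv2 in neither. Cdh5, Tie1, Eng and Esam had one at E10.5 alone, with signals of 230 to 406, where 1444 of 21536 protein-coding genes did. Their ranks ran from 73802 to 94197, so an E10.5 list as short as the E11.5 list would hold none of these 4. Tal1, Runx1 and Gfi1b are active in both blood and endothelium, and which cells carried their peaks was not tested.

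**Figure D4:**
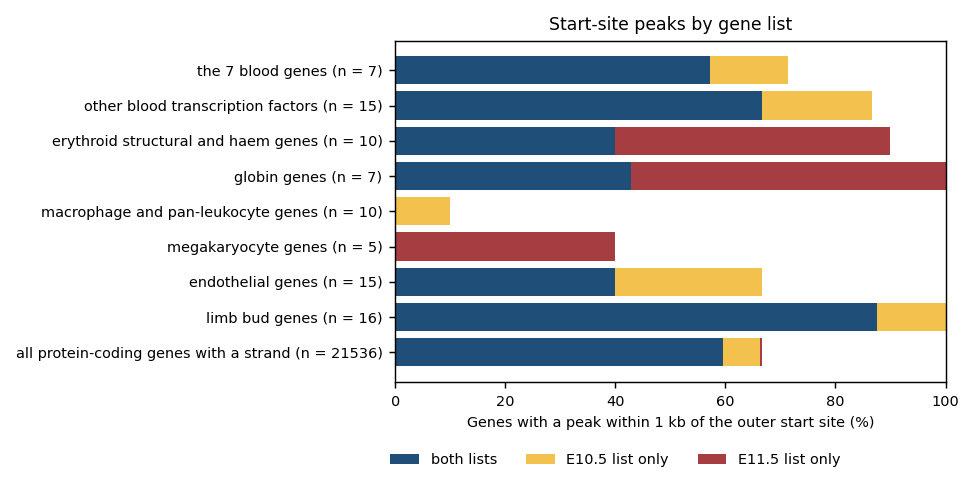
Bars give the percent of genes in each list with a peak within 1 kb of the outer start site, split into both peak lists, the E10.5 list only and the E11.5 list only; n is the number of genes located. The E11.5-only part covers 5 of 10 erythroid and 4 of 7 globin genes, and none of the 7 blood genes, where 0.385% of all protein-coding genes fall in it. With an E10.5 list as short as the E11.5 list, Tal1 and Nfe2 would fall in it too. The lists were chosen with earlier results of these data known.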

How the data were processed

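ATAC-seq peaks of limb cells were analysed in 4 samples, 2 at E10.5 and 2 at E11.5, grouped by their titles. Per the file headers, the deposited files are 1 narrowPeak list per stage on build mm10. The submitters' processing notes name cutadapt, Bowtie2, SAMtools, deepTools and Genrich, without versions or settings. How the replicates were joined is not given in the sources used here. The authors' signal value (minimum just above 200) grows with peak width. The deposited score equals signal over width, times 1000 and capped at 1000, and entered no result. The authors' −log10 p-value served as a filter only. Depth per sample is not known, and a deeper library can give a longer list.

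Genes came from the RefSeq table of GRCm38.p6, whose coordinates are those of mm10. Strand came from the RefSeq promoter table, or from GENCODE M1 by symbol for Spi1 and Nfe2 among the 7 genes, which together gave 21536 genes a strand. The start site is the gene's outer end by strand. Distances inside Spi1 and Nfe2 come from GENCODE M1, whose coordinates were not used. RefSeq promoter sequences matched 5 of the 7 genes, and Spi1 and Nfe2 were not matched. Motifs were searched in the 250 bases before the start, namely GATA, CACCC (CCACACCC, in 3.20% of promoters), RUNX, NF-E2 (TGACTCA or TGAGTCA, 4.46%) and ETS. An overlap of 1 bp or more made a peak shared. Percentiles and shares were computed with Python 3.11.15, pandas 2.3.3, numpy 2.4.6 and scipy 1.17.1. The overlap and start-site distance steps were tested on simulated data, and the ranking and pairing steps were not.

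The genes, lists and windows were chosen with earlier results of these data known. All 7 genes are described. Neighbours are named only where a window peak lies within 1 kb of their start site or in their body. Genes of the other lists are named only where they have a start-site peak or are exceptions in their list. Not all such genes are named. Of the erythroid list, 1 gene is not reported here and was left out of its counts. Alternatives comprised window size, a −log10 p of at least 5, an E10.5 list reduced by signal, the overlap rule, the start-site distance and the enhancer tolerance.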

Additional observations from a re-analysis of the deposited data

How the results depend on the processing

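No paired analysis was possible because the replicates of a stage are joined in 1 list; leaving 1 replicate out was likewise not possible. The number of window peaks followed the window: 68 and 38 peaks (E10.5 and E11.5) with 20 kb on either side, 191 and 107 with 100 kb, and 42 and 20 in the gene bodies alone. A −log10 p of at least 5 left 69 and 37 peaks, and the E11.5 share of overlapping peaks was then 91.9%. The E10.5 list reduced to the number of E11.5 peaks left 54 E10.5 peaks, shares of 74.1% and 73.0%, and 2 genes with an E10.5 start-site peak. A reciprocal overlap of 50% gave shares of 24.3% and 42.9%, and summits within 100 bp gave 34.2% and 60.3%. The shares of all peaks under these settings are not given, so none of these shares has a background beside it. Of the settings added after the data were seen, leaving out Runx1 gave 73 E10.5 peaks and a share of 57.5%. The number of pairs standing higher at E11.5 was 15 with a difference of 10 points, 1 with 50 points, and 8 with signal per bp, of which only 2 were among the 5 reported. For these 3 settings the shares of all pairs were 31.0%, 0.924% and 16.2%. Pairs standing lower numbered 8, 2 and 4 (27.2%, 2.24% and 16.3% of all pairs), and of the 4 per bp only 2 were among the 4 reported. The cause of these differences was not tested beyond the settings' own construction, which changes the peaks or bases counted. Counts of named enhancers near a peak stayed within 1.5 times under the settings run, which for these counts did not include the reduced E10.5 list. Depth is unknown, so a missing peak does not show closed chromatin.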
